A study of Mus musculus with 48 samples.

Results

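Insulin acts on fat cells through a short chain of proteins, and 9 genes of that chain were followed here: the insulin receptor Insr, the adaptors Irs1 and Irs2, the phosphoinositide 3-kinase (PI3K) subunits Pik3r1 and Pik3ca, the kinases Akt1 and Akt2, and the transcription factors Foxo1 and Foxo3. They were chosen by name out of the 54532 genes of the count table, and all 9 passed the filter on low counts that left 19977 genes for testing. In this pathway the receptor phosphorylates its adaptors, the adaptors recruit PI3K to the membrane, the lipid made by PI3K activates Akt, and Akt phosphorylates FoxO factors and keeps them out of the nucleus. In fat, insulin in this way increases glucose uptake and lipid synthesis and restrains lipolysis. Fasting releases FoxO factors to the nucleus, and Irs2 is a well-known FoxO target gene in liver.

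The libraries were made from poly-A RNA of the subcutaneous white adipose depot (sWAT, labelled iWAT) of male C57BL/6 mice 8 months old. Mice had food at all times (ad-lib, labelled Ad-Lib) or only in a meal early and a meal late in the dark phase (TAN, the twice-a-night schedule). Each diet was sampled at 6 times of day (8AM, 12PM, 4PM, 8PM, 12AM and 4AM) with 4 libraries each, 48 in all. No label says that the 4 libraries of a group came from separate mice, so p-values measure the spread between these libraries. The question put to the data was how the insulin signalling genes run through the day in each diet, what TAN does to them, and whether Irs1 and Irs2 behave alike.

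Total counts were 15636378 to 29913310 per ad-lib library and 15685080 to 25440243 per TAN library. The series text names the stromal vascular fraction of the depot, which lacks adipocytes. The paper names sWAT for the time course and whole sWAT for a bulk comparison of the diets. The 5 adipocyte markers (Adipoq, Plin1, Cidec, Lep and Fabp4) summed to 4017 to 43545 CPM (library-scaled counts) and were present in all 48 libraries. The 10 lymphocyte markers summed to between 9.40 and 2656 CPM, and 10 libraries were under 100 CPM, 3 of them among the 4 TAN libraries of 4PM. The times used here are those of the sample labels. Values of the same 48 libraries in a supplementary sheet stand under times 12 h away. By the labels, ad-lib Arntl, a clock activator, was highest at 8AM (23.7 to 44.1 CPM) and lowest at 4PM, and Dbp, a clock output gene, was highest at 4PM (85.8 to 127 CPM). At 4AM, ad-lib libraries 1 and 3 stood apart in the clock gene Nr1d1 (54.5 and 69.9 CPM, others 7.44 and 4.62). A shift by 12 h renames the time points and leaves each comparison of TAN with ad-lib as it is. In bulk tissue, fewer cells of a type and less RNA per cell cannot be told apart.

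The promoters of Irs1 and Irs2 are shown because these adaptors are the pair compared, and because their start-site regions share a short arrangement of letters. Of the 9 genes, 8 were found in the RefSeq promoter table (GRCm38.p6, 250 bases before to 50 after the start site), with 13 promoters in all, and Insr was not in it. The letters searched on both strands were CACGTG, the E-box read by clock, sterol and other helix-loop-helix factors, TGTTTTG, the core of the insulin response sequence that FoxO factors bind, and TGTTTAC, a high-affinity FoxO element. The E-box was in 7.15% of all 32851 promoters, TGTTTTG in 6.28% and TGTTTAC in 3.65%. Irs1 and Irs2 were the members with an E-box and also the members with TGTTTTG, while 1 of the 2 Akt1 promoters held TGTTTAC. In both adaptors the E-box was followed on the same strand by TGTTTTG, overlapping it in Irs1 and standing 1 base after it in Irs2. This spacing, with starts at most 10 bases apart, was noticed after the search and was present in 9 of the 32851 promoters, or 0.0274%. The capitals mark the E-box and TGTTTTG, both windows lie on the minus strand upstream of the start site, and a match describes letters only. The start sites are those of RefSeq. The Irs2 gene model used for the counts starts at chr8:11008458, downstream of this whole promoter (chr8:11008880-11009179).
Irs1, chr1:82291531-82291560, E-box starting 115 bases before the start site: ctccgtCACGTGTTTTGctcctctggagtg
Irs2, chr8:11008950-11008979, E-box starting 44 bases before the start site: cagagtCACGTGtTGTTTTGctcttagttc

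Per kilobase of exon, the order of the mean levels in ad-lib libraries ran from Akt2 to Irs2, and it was the same in TAN libraries. Akt2, the Akt isoform most tied to glucose uptake in fat, stood at 45.0 ± 11.05 CPM per kilobase (SD, n = 24), and Pik3r1, the regulatory PI3K subunit p85 alpha, at 34.8 ± 18.7. Akt1 followed at 18.4 ± 5.98. Foxo1 at 10.6 ± 1.82, the catalytic subunit Pik3ca at 10.2 ± 1.92 and Insr at 9.07 ± 3.03 lay within each other's spread. Foxo3 at 4.12 ± 0.949, Irs1 at 3.17 ± 1.17 and Irs2 at 3.06 ± 1.18 were the lowest, and the last pair did not differ beyond its spread. In TAN libraries the corresponding means were 55.86 ± 16.001 for Akt2, 30.6 ± 10.3 for Pik3r1 and 21.4 ± 5.28 for Akt1. The lowest 3 in TAN were Foxo3 at 3.87 ± 0.905, Irs1 at 3.06 ± 1.63 and Irs2 at 2.51 ± 0.929. Foxo1 had the lowest coefficient of variation of the 9 in ad-lib libraries (17.1%), and in TAN libraries Foxo1 (23.3%) and Foxo3 (23.4%) were the lowest and practically equal. Pik3r1 varied most between ad-lib libraries (53.6%), and Irs1 varied most between TAN libraries (53.1%).

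**Figure D1:**
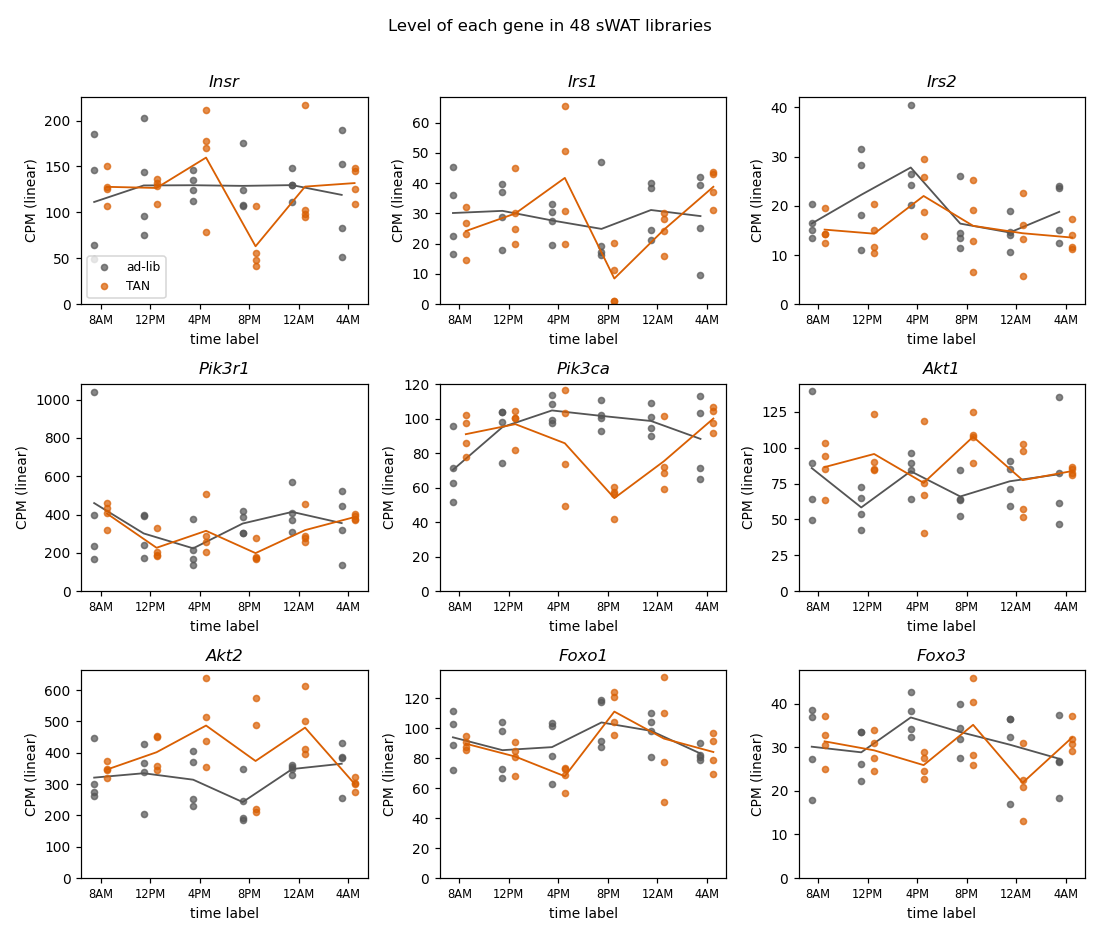
Level of each of the 9 genes (CPM, linear axis from 0) at each time label, with a point for each library and a line through the means of 4 libraries, ad-lib in grey and TAN in orange. Pik3ca separates by diet at 8PM (TAN 42.0 to 60.5, ad-lib 93.1 to 111 CPM), and Irs1 falls to 1.08 and 1.21 CPM in a pair of TAN libraries of that time.

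Tested at 6 time points, the 9 genes give 54 comparisons of TAN with ad-lib, and 1 of them was called at a Benjamini-Hochberg adjusted p under 0.05 over all tested genes with edgeR's quasi-likelihood test. That was lower Pik3ca at 8PM. Over all tested genes, 4.54% of comparisons were called, so the members were called no more often than genes at large. By time point, 0.0150% of all tested genes were called at 8AM, 0.0901% at 12PM, 15.3% at 4PM, 11.7% at 8PM, 0.150% at 12AM and 0% at 4AM, where 2.64% had an unadjusted p under 0.05. At 8PM alone 1 of the 9 genes was called lower, against 7.91% of all tested genes. Of the 54, 9 had an unadjusted p under 0.05, against 15.9% of the comparisons of all genes, and 6 of these 9 were at 8PM, where 28.0% of all tested genes had one. The other 45 log2 fold changes lay between -0.63 and 0.59, with 22 above 0, and their smallest adjusted p was 0.193. The 95% intervals reached between 0.39 and 1.07 log2 units to either side, and a difference inside that width cannot be told from 0 with these libraries. They are approximate, built with the normal distribution, and slightly narrower than the test implies. For Foxo3 at 12AM the interval ran from -0.96 to -0.01, with an unadjusted p of 0.052 by edgeR.

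**Figure D2:**
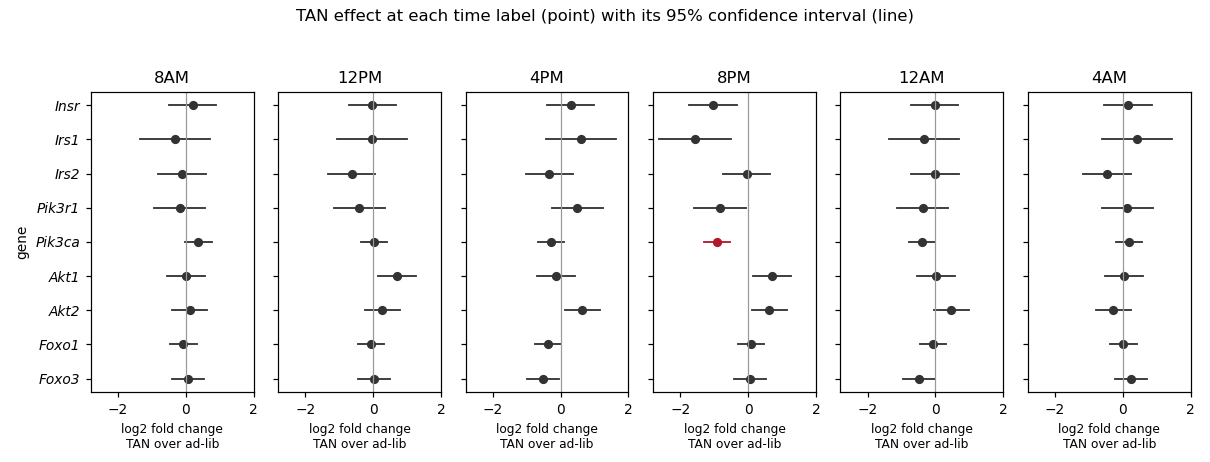
Log2 fold change of TAN over ad-lib for each gene (rows) at each time label (panels), with lines for approximate 95% confidence intervals (normal distribution) and the comparison called by edgeR in red. At 8PM Insr, Irs1, Pik3r1 and Pik3ca lie below 0 and Akt1 and Akt2 above, with Pik3ca alone called.

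Insr (ENSMUSG00000005534, chr8:3122061-3279617 in GRCm38, minus strand) codes for the receptor itself. At 8PM its levels were 107, 108, 124 and 176 CPM in ad-lib libraries and 55.8, 41.5, 47.97 and 107 CPM in TAN libraries. The first 3 TAN libraries lay below all ad-lib libraries and the last just reached them. The log2 fold change was -1.03 (SE 0.36) with an adjusted p of 0.0526, so the difference did not pass. Without TAN 8PM library 4 it was -1.41 with an adjusted p of 0.0111. That library was the highest TAN library of the time, so leaving it out lowers the TAN mean by construction. At the other 5 time points its fold changes ran from -0.03 to 0.30 on the log2 scale.

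Irs1 (ENSMUSG00000055980, chr1:82233101-82291416, minus strand), the adaptor that carries much of insulin's signal in fat and muscle, had the largest fold change of the 54. At 8PM it stood at 16.4, 17.1, 19.1 and 46.96 CPM in ad-lib libraries and at 1.21, 1.08, 11.3 and 20.4 CPM in TAN libraries. In counts, TAN libraries 1 and 2 held 24 and 27 Irs1 reads and the ad-lib libraries 352 to 1080. The TAN group was thus split, with a pair of libraries far under every other library of the series and library 4 inside the ad-lib range. The log2 fold change was -1.56 (SE 0.54, adjusted p = 0.0535) and did not pass. Without TAN library 4 it was -2.45 (adjusted p = 0.00415), and the range over leaving out each library was -2.45 to -1.05. Library 4 was the highest TAN library of the time, so leaving it out lowers the TAN mean by construction. TAN libraries 1 and 2 also had the lowest adipocyte marker sums of the 48 libraries, 6551 and 4017 CPM, where ad-lib libraries of that time had 7940 to 21041 CPM and TAN libraries 3 and 4 had 26958 and 35646 CPM. Their lymphocyte markers, 2342 and 2656 CPM, were above the 593 to 1912 CPM of the ad-lib libraries. With the adipocyte markers as a covariate the Irs1 log2 fold change was -2.15 with an adjusted p of 0.000587. In that fit 25.0% of all tested genes were called at 8PM. With the TEC covariate described with the transcript lengths the Irs1 value was -0.96 (adjusted p = 0.520), not called. At the other time points Irs1 fold changes ran from -0.34 to 0.59 on the log2 scale with overlapping libraries.

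Irs2 (ENSMUSG00000038894, chr8:10984681-11008458, minus strand), the adaptor prominent in liver and beta cells, showed nothing of this kind. At 8PM its levels were 13.5, 11.5, 14.48 and 26.0 CPM in ad-lib libraries and 19.2, 6.54, 12.8 and 25.2 CPM in TAN libraries, and the groups overlapped throughout. The log2 fold change was -0.04, with a 95% interval from -0.74 to 0.65. Its lowest fold change came at 12PM (-0.63, SE 0.36, adjusted p = 0.731), where ad-lib libraries had 18.2, 10.95, 28.3 and 31.5 CPM and TAN libraries 20.3, 10.5, 15.0 and 11.6 CPM. At all 6 time points the Irs2 fold change was below 0, from -0.63 to -0.02, and the mean over the day was -0.27 (SE 0.15, adjusted p = 0.278). The labels do not say which libraries kept the strand, and an overlapping gene on the other strand holds a count equal to 7.24% of that of Irs2.

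The ratio of Irs2 to Irs1 counts sets these adaptors against each other within a library, where library scaling cancels. In ad-lib libraries the log2 ratio had a median of -0.62 and ran from -1.75 to 0.64. Per kilobase of exon the median linear ratio of Irs2 to Irs1 was 0.942, with Irs2 the higher in 11 of 24 libraries. In TAN libraries the median log2 ratio was -0.77 and the range -2.08 to 3.95. Irs2 was again the higher per kilobase in 11 of 24 libraries. At 8PM the log2 ratio was -0.28, -0.58, -0.40 and -0.85 in ad-lib libraries and 3.95, 2.57, 0.19 and 0.30 in TAN libraries. All 4 TAN libraries were above all 4 ad-lib libraries, and the split into a high and a low pair was that of Irs1. The difference was 2.28 (SE 0.92), and the exact permutation test (two-sided) gave p = 0.0286, the smallest that 4 against 4 allows, and 0.171 adjusted over the 6 time points.

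At 4AM the ratio went the other way, with a difference of -1.04 (SE 0.56, exact permutation p = 0.114). At 12PM and 4PM the differences were -0.52 and -0.82, and at 8AM and 12AM 0.15 and 0.18, all with overlapping libraries and exact p-values of 0.171 and over. The mean over the 6 time points was 0.04 (permutation test of diet labels within time points, 100000 resamples, two-sided, p = 0.899), with TAN higher at 3 of 6. The 6 differences were more spread than with diet labels permuted within time points (permutation p = 0.00128). The null of that test is no TAN effect at any time, so it does not test whether the effect was equal at all times. Within TAN the ratio varied over the day (permutation p = 0.0009, adjusted over both diets 0.0018), and within ad-lib it did not pass (p = 0.259). Without TAN 8PM libraries 1 and 2 the permutation p within TAN was 0.129, so this variation rests on them. The spread of the 6 differences was not tested without these libraries.

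**Figure D3:**
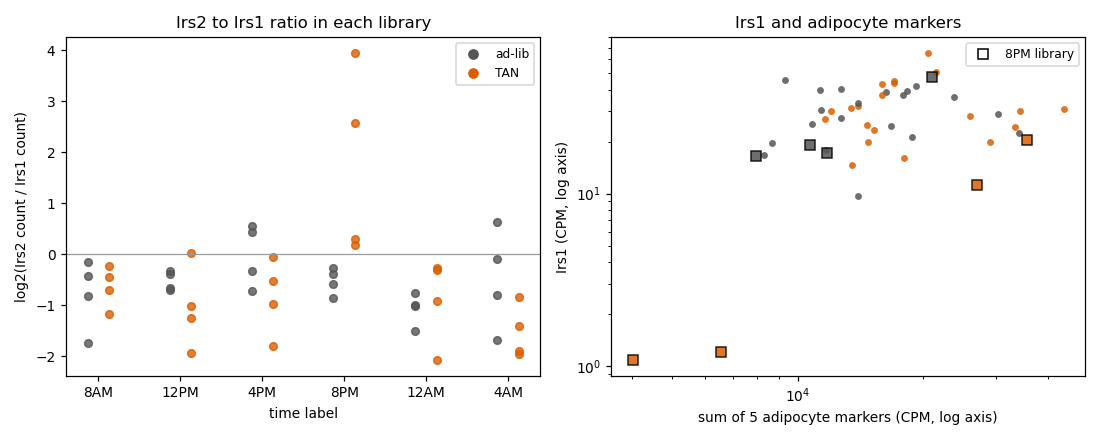
Left, log2 ratio of Irs2 to Irs1 counts in each library by time label, ad-lib in grey and TAN in orange; the 4 TAN libraries of 8PM lie above the ad-lib ones, a pair of them at 2.57 and 3.95. Right, Irs1 level (CPM) against the summed level of 5 adipocyte markers (CPM) in 48 libraries, both on log axes, with 8PM libraries as outlined squares; the same pair sits lowest on both axes.

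Over the 48 libraries, log2 levels of Irs1 and Irs2 had a Pearson r of 0.31, and Irs1 and Insr one of 0.73. The genes most like Irs1 were Sik2, a salt-inducible kinase (r = 0.94), Med12l, a Mediator subunit (0.94), and Pdxdc1 (0.92), with 9539, 12763 and 7960 exon bases. Those most like Irs2 were Tns2, a tensin (0.73), Pdzrn3, a ubiquitin ligase (0.66), and the dopamine receptor gene Drd1 (0.62). These are descriptions over libraries that share depth, tissue makeup and diet groups.

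Pik3r1 (ENSMUSG00000041417, chr13:101680563-101768217, minus strand) and Pik3ca (ENSMUSG00000027665, chr3:32397671-32468486, plus strand) form the PI3K that adaptors recruit. For Pik3ca the 8PM levels were 93.1, 101, 111 and 102 CPM in ad-lib libraries and 57.2, 56.1, 42.0 and 60.5 CPM in TAN libraries. All TAN libraries were below all ad-lib libraries, as in 11.6% of all tested genes with TAN below, and within a group the libraries lay close together. Pik3ca fell by 0.91 on the log2 scale (SE 0.20, adjusted p = 0.00499), from a mean of 101.6 ± 7.33 to 53.9 ± 8.14 CPM (SD, n = 4). Fitted on the 8PM libraries alone the value was -0.89 with an adjusted p of 0.0696, which ends the call. At 12AM its log2 fold change was -0.39 (adjusted p = 0.303), at 4PM -0.29 (0.320), at 12PM 0.03, at 4AM 0.18 and at 8AM 0.37 (adjusted p = 0.776). The TAN effect on Pik3ca differed between time points (F test over the 6, adjusted p = 0.0234), as it did for 8.98% of all tested genes and for no other member. This difference between time points was not called without ad-lib 8PM library 3, nor with the length offsets or the TEC covariate described with the transcript lengths.

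Pik3r1 at 8PM stood at 302, 418, 303 and 389 CPM in ad-lib libraries and at 171, 169, 176 and 277 CPM in TAN libraries. All TAN libraries were below all ad-lib libraries, but the fitted log2 fold change of -0.83 (SE 0.39) had an adjusted p of 0.149. Its most extreme library was ad-lib 8AM library 1 at 1039 CPM, where the other 3 had 168 to 395 CPM.

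Pik3ca, Pik3r1, Irs1 and Insr are long transcripts, of 9088, 10079, 9144 and 13746 exon bases, and TAN fold changes at 8PM moved with transcript length in all genes. Among the 2573 tested genes of 8 kb and over, the median log2 fold change at 8PM was -0.55, 80.9% were below 0 and 20.8% were called lower. For genes of 4 to 8 kb the median was -0.16, for 2 to 4 kb 0.07 and for shorter genes 0.19. The same order of length classes appeared at 12AM (median -0.39 for the longest) and, apart from the shortest class, at 4PM (-0.32), and the opposite order at 8AM (0.23) and 4AM (0.16). With each library's trend on length put into the offsets of the fit, the 8PM log2 fold change of Pik3ca was -0.44 (adjusted p = 0.0404), still called. The values became -1.06 for Irs1 (adjusted p = 0.183), -0.28 for Insr and -0.30 for Pik3r1. Loci of the TEC biotype, a class of mostly single-exon transcripts, took a share of the counts that was 0.0294% to 0.0394% in the TAN libraries of 8PM and 0.0807% to 0.104% in the ad-lib ones. The diets did not overlap in this share, so diet and the TEC share cannot be told apart at 8PM. With that share as a covariate Pik3ca was at -0.37 (adjusted p = 0.354), no longer called. Irs1 was at -0.96 (adjusted p = 0.520), Insr at -0.16 (0.873) and Pik3r1 at -0.36 (0.769). Of all tested genes, 0.320% were called at 8PM in that fit, so the loss of calls was general. The part of RNA quality or library preparation in these differences was not tested.

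**Figure D4:**
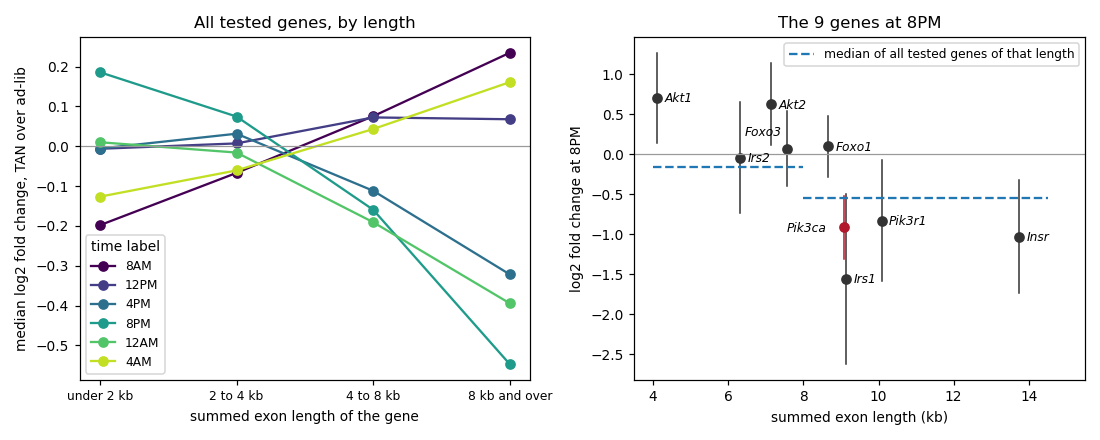
Left, median log2 fold change of TAN over ad-lib of all tested genes in 4 classes of summed exon length, with a line per time label; at 8PM it runs from 0.19 under 2 kb to -0.55 at 8 kb and over. Right, 8PM log2 fold change of each of the 9 genes with its 95% interval against its length, with dashed lines at the medians of all tested genes of 4 to 8 kb and of 8 kb and over; Pik3ca, called, is in red, and Irs1 lies lowest at -1.56.

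Akt1 (ENSMUSG00000001729, chr12:112653821-112674884, minus strand) and Akt2 (ENSMUSG00000004056, chr7:27591552-27640826, plus strand) code for the kinases that carry the signal on. At 8PM Akt1 stood at 84.2, 52.4, 63.3 and 64.2 CPM in ad-lib libraries and at 107, 125, 109 and 89.6 CPM in TAN libraries, without overlap. The log2 fold change was 0.71 (SE 0.29) with an adjusted p of 0.0943. At 12PM Akt1 again did not overlap, with 53.7, 42.8, 72.4 and 64.6 CPM in ad-lib and 123, 84.2, 85.4 and 89.8 CPM in TAN libraries (log2 fold change 0.71, adjusted p = 0.594). Groups with TAN above were seen in 4.55% of all tested genes at 8PM and 3.30% at 12PM. At the other 4 time points Akt1 lay between -0.15 and 0.04.

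Akt2 at 4PM was 251, 406, 230 and 370 CPM in ad-lib libraries and 356, 514, 640 and 438 CPM in TAN libraries, and at 8PM 192, 184, 246 and 348 CPM against 212, 220, 489 and 574 CPM. The groups overlapped at both times, and the log2 fold changes of 0.63 (adjusted p = 0.0859) and 0.62 (adjusted p = 0.108) did not pass. At 12AM the Akt2 groups did not overlap (329 to 360 CPM in ad-lib, 397 to 613 CPM in TAN, with TAN above as in 3.59% of all tested genes), with a fold change of 0.46 on the log2 scale and an adjusted p of 0.356. Akt2 had the largest mean effect over the day of the 9 genes, 0.30 (SE 0.11, adjusted p = 0.0825), while 5.42% of all tested genes were called for a mean effect by edgeR and 0 of the 9 were. Of the 9, 2 (Akt2 and Pik3ca) had an unadjusted p under 0.05 by edgeR, against 21.5% of all tested genes. DESeq2 called 1 (Akt2) and limma voom 0. The share of all tested genes called by DESeq2 or limma voom was not computed for this or any later count. With the length offsets Akt2 was called higher at 4PM (0.88, adjusted p = 0.0367) and at 8PM (0.97, adjusted p = 0.0355). With the adipocyte markers as a covariate it was called at 8PM (0.59, adjusted p = 0.00681), and at 4PM it was at 0.17 (adjusted p = 0.694). Without TAN 8PM library 1 or 2, among other single libraries, the mean effect of Akt2 was called. The TAN libraries of 4PM had 20583 to 43545 CPM of adipocyte markers and the ad-lib ones 8672 to 13993 CPM, without overlap.

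Foxo1 (ENSMUSG00000044167, chr3:52268336-52353221, plus strand) and Foxo3 (ENSMUSG00000048756, chr10:42181841-42276755, minus strand) are the transcription factors at the end of the chain, which Akt regulates by phosphorylation rather than through their mRNA. Foxo1 at 8PM was 119, 91.6, 117 and 87.8 CPM in ad-lib libraries and 105, 124, 95.5 and 121 CPM in TAN libraries. The groups were interleaved, and the log2 fold change was 0.10 with a 95% interval from -0.29 to 0.48. With the length offsets Foxo1 was called higher at 8PM (0.55, adjusted p = 0.0473). Across the 6 time points Foxo1 fold changes ran from -0.36 at 4PM to 0.10 on the log2 scale. Foxo3 at 4PM was 34.2, 32.3, 38.3 and 42.6 CPM in ad-lib libraries and 27.7, 28.9, 22.7 and 24.5 CPM in TAN libraries, without overlap, where 17.8% of all tested genes had every TAN library below. Its log2 fold change of -0.51 (SE 0.24) had an adjusted p of 0.135, and at 12AM it was -0.48 (adjusted p = 0.292).

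Over the day within a diet, no member varied between the time points in ad-lib libraries by edgeR (smallest adjusted p = 0.787). There 0 of 9 had an unadjusted p under 0.05, against 6.67% of all tested genes, and DESeq2 and limma voom also called 0. Over all tested genes 0.0551% were called there, so the ad-lib tests called almost nothing. In TAN libraries Irs1 (adjusted p = 0.0319) and Pik3ca (adjusted p = 0.0133) varied, 2 of 9 against 23.0% of all tested genes, and 4 of the 9 had an unadjusted p under 0.05 (42.2% of all). Irs1 in TAN was lowest at 8PM (8.49 ± 9.26 CPM, SD, n = 4) and highest at 4PM (41.8 ± 20.2 CPM), and at the remaining times its means lay between 24.2 and 38.8 CPM. Leaving out TAN 8PM library 1 or 2, or TAN 4PM library 2 or 4, ended the Irs1 call, and with length offsets neither gene was called. Pik3ca in TAN was lowest at 8PM and highest at 4AM (100.1 ± 6.74 CPM).

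A 24-h harmonic, a cosine fitted to the 6 group means, was called for Pik3ca in TAN (adjusted p = 0.00827; 19.8% of all tested genes) and for 0 of 9 in ad-lib (0.0801%). In ad-lib 1 of 9, Pik3ca, had an unadjusted p under 0.05 (11.4% of all), and DESeq2 and limma voom called 0. The fitted Pik3ca harmonic in TAN had an amplitude of 0.35 log2 units and a peak at hour 8.44 of the labelled clock. In ad-lib it was 0.23 with a peak at hour 19.1 (adjusted p = 0.356). The Pik3ca harmonic differed between the diets (adjusted p = 0.00268), as in 20.2% of all tested genes. With length offsets or the TEC covariate the Pik3ca harmonic calls were lost. Among the other members the fitted amplitude was largest for Irs1 in TAN (0.55, adjusted p = 0.150), which was not called. For Irs2 the fitted peaks were at hours 13.9 in ad-lib and 16.4 in TAN, with amplitudes of 0.34 and 0.24 that were not called either.

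Around these 9, a list of 97 other genes of the pathway was followed, of which 94 were tested. At single time points the list had calls at 12PM, 4PM and 8PM. At 12PM 1 was called, Acly, the citrate lyase that Akt phosphorylates and that feeds lipid synthesis, at 190 to 666 CPM in ad-lib and 1596 to 3432 CPM in TAN libraries (log2 fold change 3.02, adjusted p = 0.00704; 0.0901% of all tested genes were called). At 8PM 1 of the 94 was called higher and 7 lower, where 11.7% of all genes were called, 3.76% higher and 7.91% lower. At 4PM 12 were called higher and 16 lower, where 15.3% of all genes were called, 6.54% higher and 8.77% lower. The median log2 fold change of the list at 4PM was 0.04, against -0.09 over all tested genes, and at 8PM -0.01 against -0.10. The effect averaged over the 6 times was called for 10 of the 94, 6 higher and 4 lower (5.42% of all tested genes). The diet effect differed between time points for 8 (8.98% of all), and 34 varied over the day in TAN (23.0% of all).

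The calls of the list at 4PM and 8PM changed with the covariates and offsets added to the fit. At 4PM the 10 lymphocyte markers summed to 958 to 1636 CPM in ad-lib and 9.40 to 343 CPM in TAN libraries, and the 5 adipocyte markers to 8672 to 13993 CPM and 20583 to 43545 CPM, so neither set overlapped between the diets and diet and markers cannot be told apart there. With the lymphocyte markers as a covariate in edgeR, 0 of the 28 calls at 4PM were left, as were 0 calls over all 19977 genes, and 8 of the 94 had an unadjusted p under 0.05 (12.5% of all). With the adipocyte markers 3 of the 94 were called at 4PM (0.365% of all), with the TEC share 3 (0.275% of all), and with gene-length offsets 26 (15.48% of all). At 8PM the TEC share left 0 of the 94 called (0.320% of all), with 14 at an unadjusted p under 0.05 (13.5% of all). Gene-length offsets called 6 there, of which 4 were higher (7.01% of all were called in either direction). Acly at 12PM was called in each of these fits.

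By role, the 16 Akt substrates and mTORC1 genes had 5 called at 4PM, all higher, where 6.54% of all genes were called higher. Among them Slc2a4, the insulin-responsive glucose transporter GLUT4, was at 113 to 185 CPM in ad-lib and 320 to 476 CPM in TAN libraries (log2 fold change 1.29, adjusted p = 0.0448). Eif4ebp1, a translation inhibitor phosphorylated by mTORC1, rose by 1.13 on the log2 scale (adjusted p = 0.0446). The adipocyte markers were higher in the same TAN libraries. With the adipocyte or the lymphocyte markers as a covariate neither gene was called (Slc2a4 log2 fold change 0.32 or 0.34, Eif4ebp1 0.25 or 0.39).

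Among the other 8 PI3K genes, 3 were called lower at 4PM, where 8.77% of all genes were called lower. The leukocyte catalytic subunits Pik3cg (log2 fold change -3.28) and Pik3cd (-3.20) went from 44.7 to 70.8 and 41.6 to 98.5 CPM in ad-lib to 3.29 to 7.73 and 3.63 to 15.8 CPM in TAN libraries, and the PI3K inhibitor Pik3ip1 was at -1.52. The lipid phosphatases Inpp5d (-2.77), a gene of blood cells, and Inpp4b (-2.62) were lower at the same time, and the phosphatase subunit Ppp2r5b (1.03) was higher. With the lymphocyte markers as a covariate the log2 fold changes were -1.18 for Pik3cg and -0.48 for Pik3cd, and neither was called. That fit called no gene at 4PM, where diet and these markers cannot be told apart. Pik3cg stayed called with the adipocyte markers as a covariate and with gene-length offsets, but not with the TEC share. Pik3cd stayed called with gene-length offsets only. Whether lymphocyte content accounts for these 4PM values was not tested.

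Of 19 tested adaptors and receptor inhibitors, 3 were called at 4PM, all lower, where 8.77% of all genes were called lower. They were Enpp1, a receptor inhibitor (log2 fold change -2.58), the Akt inhibitor Trib2 (-1.41) and the ubiquitin ligase Cbl (-1.32), and the lymphocyte covariate left none of them called. Rictor, the mTORC2 subunit that enables full Akt activation, was lower at 8PM (-1.09, adjusted p = 0.0393), and its transcript is 16930 bases long. With gene-length offsets the Rictor log2 fold change was -0.26, with the TEC covariate 0.06, and neither fit called it.

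Of 21 tested FoxO target genes, 3 were called higher and 4 lower at 4PM, where 6.54% and 8.77% of all genes were, and the lymphocyte covariate left none of them called. Sod2, the mitochondrial superoxide dismutase, went from 104 to 173 CPM in ad-lib to 270 to 402 CPM in TAN libraries (log2 fold change 1.31, adjusted p = 0.012), and Klf15, a fasting-linked transcription factor, rose by 1.26. The pro-apoptotic gene Bcl2l11 fell by 1.11. Of 11 FoxO partners, 1 was called higher and 1 lower at 8PM, where 3.76% and 7.91% of all genes were. The lower was Ppargc1a, the coactivator PGC-1 alpha (6.25 to 25.0 CPM in ad-lib and 1.42 to 9.01 CPM in TAN libraries, log2 fold change -1.56, adjusted p = 0.0341). It was not called with gene-length offsets (-1.27) or the TEC covariate (-0.65). At 4PM 2 partners were called higher and 2 lower, where 6.54% and 8.77% of all genes were. The lower were Trp53 (-1.43) and the ubiquitin ligase gene Skp2 (-1.35). With the lymphocyte covariate these were at -0.25 and -0.77, and neither was called.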

How the data were processed

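RNA of 48 sWAT libraries was sequenced. The authors deposited raw read counts per gene (GRCm38 coordinates), which were used here, and FPKM means per group, which were not used. Per the labels' processing notes, the tools were TopHat 1.3.3, DESeq2 1.20.0, limma and edgeR. Strand setting and aligner options are not given in the sources used here. Counts were kept by filterByExpr (minimum 10), scaled with TMM, and fitted in 12 groups with edgeR 4.0.16 (robust quasi-likelihood, R 4.3.3), with Benjamini-Hochberg adjustment over 19977 genes. DESeq2 1.42.0 and limma 3.58.1 (voom) served as alternatives, and all 3 were tested on simulated data. CPM divides counts by TMM-scaled library size. Ratios used a pseudocount of 0.5 and permutation tests. The members and lists were chosen with earlier results of these data known. Named are all 9 members, up to 3 called genes per pathway role by absolute fold change, and the 3 genes most like Irs1 and Irs2.

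The times of the labels were kept. Over 979 genes, the study's supplementary FPKM sheet matched all 48 libraries to columns named 12 h apart, the same diet and number. Alternatives were other filters, scalings, tests and call rules, a replicate block, separate fits, marker covariates (their effect on the pathway list was added after seeing the data) and leaving out each library. Covariates for the TEC share, gene-length offsets and sets of left-out libraries were added after seeing the data. A gene of the pathway list is counted but not reported singly.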

Additional observations from a re-analysis of the deposited data

Results flagged for a closer look

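In 6 of 120 groups of 4 libraries (9 genes and the Irs ratio in 12 groups) the highest library stood apart from the other 3 by more than Dixon's 95% critical value, and chance flags about 5% of such groups. Insr in TAN 12AM library 4 was at 217 CPM, with the others at 94.6 to 102 CPM. Irs1 in ad-lib 8PM library 4 was at 46.96 CPM, with the others at 16.4 to 19.1 CPM. Pik3r1 was high in library 4 of TAN 12PM (327 CPM, others 186 to 202), TAN 8PM (277 CPM, others 169 to 176) and TAN 12AM (454 CPM, others 255 to 286). Akt1 in TAN 12PM library 1 was at 123 CPM, with the others at 84.2 to 89.8 CPM.

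The effect of TAN differed between time points for Pik3ca (edgeR, adjusted p = 0.0234), and its 24-h harmonic differed between the diets (edgeR, adjusted p = 0.00268). The effect of TAN on the Irs2 to Irs1 log2 ratio differed between time points (permutation p = 0.00128), where the 8PM difference of 2.28 stood against -1.04 at 4AM. In TAN 8PM libraries 1 and 2, with 24 and 27 Irs1 reads, the log2 ratio was 3.95 and 2.57. The difference between time points was not tested without them. At 8PM alone the exact permutation test gave an adjusted p of 0.171.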

How the results depend on the processing

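The count of members and time points called lower in TAN (1, Pik3ca at 8PM) was 3 with at least 10 counts in every library, with DESeq2, with limma voom and with the adipocyte covariate, which added Insr and Irs1 at 8PM. It was 2 with the replicate block and the muscle covariate (Irs1 added) and without ad-lib 4AM libraries 1 and 3 (Insr added), 4 with the lymphocyte covariate (Insr, Irs1 and Pik3r1 at 8PM added) and without the 10 libraries of low lymphocyte markers (Insr and Irs1 at 8PM and Pik3ca at 4PM added, where 1 TAN library is left, assumed to vary like the other groups), 0 with the TEC share or a fold change beyond 1, and 1 to 3 when single libraries were left out (3 without TAN 8PM library 4 or ad-lib 4AM library 4). Separate fits also gave 1, but it was Foxo3 at 4PM, with Pik3ca at 8PM at an adjusted p of 0.0696. At 8PM the lymphocyte covariate raised the share of all tested genes called from 11.7% to 19.5%, and the adipocyte covariate to 25.0%. The count called higher (0) was 1 with the lymphocyte covariate (Akt1 at 8PM) or the adipocyte covariate (Akt2 at 8PM) and 3 with gene-length offsets (Akt2 at 4PM and 8PM, Foxo1 at 8PM), and stayed 0 when single libraries were left out. Shares of all tested genes for the TEC share and gene-length offsets are given with the pathway list. They were not computed for the other filters, DESeq2, limma voom, the replicate block, the muscle covariate, separate fits or left-out libraries. In those alternatives a changed count, such as Insr or Irs1 added, cannot be told from a change over all tested genes.

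Members with a mean effect (0) became 1 with DESeq2 and the adipocyte covariate, both Akt2, 3 without the low-lymphocyte libraries, and 0 to 1 without single libraries (Akt2 without ad-lib 8AM library 4, ad-lib 8PM library 4, or TAN 8PM library 1 or 2). Effects that differed between time points (1) became 2 with limma voom, the adipocyte covariate and without the low-lymphocyte libraries, 0 with the TEC share and gene-length offsets, and 0 to 2 without single libraries (0 without ad-lib 8PM library 3). Members varying over the day in TAN (2) became 1 without a filter and with the TEC share, 4 with the lymphocyte covariate, and 1 to 3 without single libraries. With gene-length offsets neither Irs1 nor Pik3ca was called for this variation. Harmonics in TAN (1) became 2 with limma voom, separate fits, the adipocyte covariate and gene-length offsets, 4 with the lymphocyte covariate, 3 without the low-lymphocyte libraries, 0 with the TEC share, and 1 to 2 without single libraries. Harmonics differing between diets (1) became 2 with the lymphocyte and adipocyte covariates, gene-length offsets and without the low-lymphocyte libraries, 0 with the TEC share, and 1 to 2 without single libraries. With gene-length offsets the harmonic calls were Akt2 and Foxo1, not Pik3ca. In ad-lib the counts over time and for harmonics were 0 throughout. For the counts of this paragraph, the share of all tested genes called in each alternative was not computed. A change in them therefore cannot be told from a change over all tested genes.

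The mean Irs2 to Irs1 difference of 0.04 was -0.0383 by medians and -0.0047 with gene-length offsets, -0.0861 to 0.123 without single libraries, and 0.04 with the replicate block of paired numbers. Of 24 same-numbered pairs, 10 had a correlation of residuals over 0.1 (5000 genes, median -0.01, range -0.59 to 0.84). Pairs of different numbers were not compared, so this cannot decide whether replicate numbers pair libraries. Beside Irs1 at 8PM, the replicate block changed no other call of these counts. Members had 24 to 18530 counts per library, the lowest being Irs1 in TAN 8PM library 1. The causes of these changes were not tested.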
